A study of Oryza sativa Japonica Group with 20 samples.

Results

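In rice root tips, 433 stretches of chromatin carried H3K27me3 without H3K4me3 in wild type and carried H3K4me3 in plt345, a line mutated in the PLT3, PLT4 and PLT5 genes. They were chosen as follows. The H3K27me3 peaks of all 4 libraries were merged into 27526 regions, and a mark was called present in a library where its peaks covered at least 150 bp of a region. Of the 27526 regions, 20610 had H3K27me3 in both wild-type libraries, and 15380 of these had H3K4me3 in neither wild-type library. H3K4me3 was present in both plt345 libraries at 433 of the 15380 regions, a share of 2.82%. The H3K4me3 values and the wild-type H3K27me3 values therefore chose the regions and are given as a description. The H3K27me3 of plt345, EMF2b and PLT5 played no part in the choice, except that plt345 H3K27me3 peaks helped to set the outer edges of a region.

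The libraries came from CUT&Tag, in which an antibody tethers a transposase that cuts and tags the DNA next to its target. The groups were plt345 and the wild-type cultivar ZH11 (WT), both of Oryza sativa Japonica, and nuclei were taken from root tips of about 0.8 cm at 7 days after germination. Plants of both genotypes grew untreated in diluted Murashige and Skoog medium, with 14 h of light at 28 °C and 10 h of dark at 24 °C, and the labels give no alleles of the mutated genes. Each genotype had 2 libraries each for H3K27me3, H3K4me3 and EMF2b, and PLT5 was used in its 2 WT libraries; PLT5 in plt345 and the IgG controls were not analysed here. A root tip holds many cell types, so peaks of 2 marks at the same bases may come from different cells, and fewer cells with a mark cannot be told apart from less of the mark per cell.

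H3K27me3 is laid down by Polycomb repressive complex 2 (PRC2) over genes that are kept silent, and EMF2b is a rice subunit of that complex. H3K4me3 sits over the starts of genes that are transcribed or poised, and a region that carries both marks is called bivalent. PLETHORA (PLT) proteins are AP2-type transcription factors that maintain the stem cells of the root meristem. The study asked how PLT proteins and PRC2 keep genes repressed in bivalent domains of this tissue.

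The files were lists of called peaks, one per library, so a region without a peak may still hold signal below the caller's threshold, and the read depth is unknown. Nothing in the labels says whether the 2 libraries of a group came from separate plants. With 2 libraries against 2, the smallest two-sided p of an exact permutation test is 0.333, so no comparison between genotypes could pass 0.05. The H3K4me3 lists held 27182 and 26841 peaks in plt345, against 25762 and 25165 in WT. The H3K27me3 lists held 20841 and 20942 peaks in plt345, against 23957 and 24185 in WT. The EMF2b lists held 15342 and 17891 peaks in plt345, against 15486 and 14851 in WT.

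The opposite change was about as frequent. Of 12936 regions with H3K27me3 in both plt345 libraries and H3K4me3 in neither of them, 371 had H3K4me3 in both WT libraries, a share of 2.87%. When each list was cut to an equal number of its strongest peaks, the gain was counted at 293 regions and the opposite change at 473. With presence at 500 bp these counts were 242 and 306, and with peaks below the 25th percentile of q left out they were 219 and 193, so which count was larger depended on the setting. A further 448 of the 15380 regions had H3K4me3 in a single plt345 library, 223 in replicate 1 and 225 in replicate 2, and 419 of these had no H3K4me3 base in the other library. Asking for the mark in replicate 2 alone gave 658 regions, and in replicate 1 alone 656. At the threshold itself, the members with the least H3K4me3 lay on chromosome 3 from 12610225 to 12613096 with 221 and 152 bp in plt345, on chromosome 1 from 6179168 to 6181279 with 154 and 376 bp, and on chromosome 1 from 36496579 to 36498918 with 311 and 157 bp. The regions just below it lay on chromosome 7 from 7950761 to 7953069 with 149 and 334 bp, on chromosome 12 from 1877179 to 1881769 with 230 and 146 bp, and on chromosome 7 from 1316512 to 1316822 with 146 and 200 bp. Positions are those of the lists, counted from 1. No source used here names their assembly, so neither a gene nor a sequence was assigned to any region.

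The 433 regions were spread over all 12 chromosomes. They made up between 2.36% of the WT H3K27me3-only regions of chromosome 10 (23 of 976) and 3.34% of those of chromosome 7 (41 of 1226), and the 95% Wilson intervals of these shares overlapped. Another 2 of the 433 lay on an unplaced sequence named Sy. The median gap to the next of the 433 on the same sequence was 489 kb, and 27 of 420 gaps were shorter than 20 kb. The regions had a median width of 2079 bp, with a range of 322 to 5679 bp. The 14499 WT H3K27me3-only regions with H3K4me3 in no plt345 library, called the rest below, had a median width of 1580 bp.

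The new H3K4me3 was short. Its length inside a region had a median of 467 bp in plt345 replicate 1, with a range of 154 to 1609 bp, and of 465 bp in replicate 2, with a range of 152 to 1755 bp. At the median it covered 27.2% of the region's width. In 428 of the 433 regions the 2 plt345 libraries shared H3K4me3 bases, and the longest shared stretch, called the H3K4me3 core below, had a median of 373.5 bp. The summits of the strongest H3K4me3 peaks of the 2 libraries lay within 200 bp of each other at 314 of 433 regions (72.5%, 95% Wilson interval 68.1 to 76.5%), with a median distance of 72 bp. The remaining 5 regions had H3K4me3 in both plt345 libraries at different bases.

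The core stood at no fixed place within the region. Its centre lay a median of 400 bp from the nearer edge and 373 bp from the region's centre. It fell in the outer 25% of the width on either side at 203 of 428 regions (47.4%, 95% Wilson interval 42.7 to 52.2%), and these outer parts together are as long as the inner part. At 120 of 428 regions (28.0%) the H3K4me3 ran past the edge of the H3K27me3 region. By the peak caller's summits, 395 of the 433 strongest H3K4me3 peaks of plt345 replicate 1 and 391 of replicate 2 had their summit inside the region, at a median of 405 and 406 bp from the nearer edge.

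Most cores were far from H3K4me3 of the WT. The nearest WT H3K4me3 peak was a median of 7484 bp away. It lay within 1000 bp at 38 of 428 regions (8.88%) and farther than 10000 bp at 154 (36.0%). At 24 regions (5.61%) the new H3K4me3 belonged to a peak that reached a WT peak, and the 3 regions nearest above the 150 bp threshold were among them. Only 17 of the 433 regions held any WT H3K4me3 base.

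The new H3K4me3 peaks ranked low in their own lists. The fold enrichment and q of a peak are the authors' values, and they rank peaks within a list only. The strongest new peak of a region stood at a median percentile of 18.7 by −log10 q in plt345 replicate 1 and of 20.3 in replicate 2. In replicate 1, 276 of the 433 regions fell below the 25th percentile of the list and 44 above its median. In replicate 2, 266 fell below the 25th percentile and 39 above the median. The median fold enrichment was 3.5 in replicate 1 and 3.51 in replicate 2, where the medians over the whole lists were 3.7 and 3.71. The same regions' H3K27me3 peaks ranked above the middle of their lists, at median percentiles of 64.6 and 60.5 in plt345 and of 65.4 and 62.3 in WT. The choice asked for H3K27me3 in both WT libraries, and the strongest peak of each region was taken. Both favour a high rank, and other regions were not ranked, so the H3K27me3 rank is no trait of the 433.

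**Figure D1:**
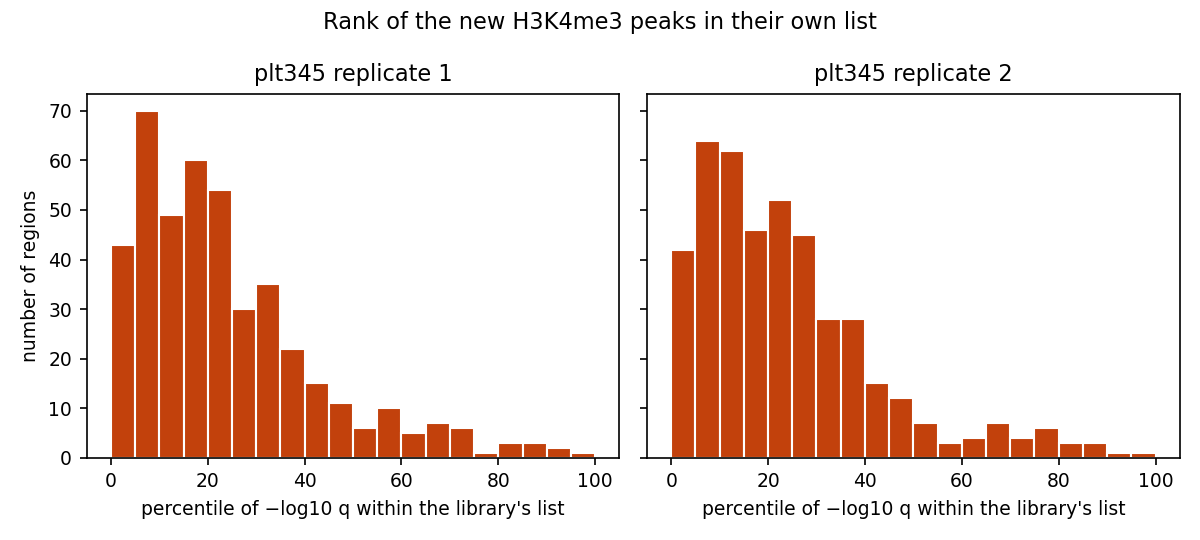
Percentile of the strongest new H3K4me3 peak of each of the 433 regions among all H3K4me3 peaks of the same plt345 library (x axis, by −log10 q) and number of regions per bin of 5 percentile points (y axis), replicate 1 on the left and replicate 2 on the right. The counts crowd at the low end, with 276 and 266 regions below the 25th percentile.

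The region with the longest new H3K4me3 lay on chromosome 7 from 20365716 to 20368815. It had 1609 and 1670 bp of H3K4me3 in plt345 and none in WT. H3K27me3 covered 2905 and 2866 bp of it in plt345, against 2453 and 2068 bp in WT, where the peaks left a gap that the plt345 peaks bridged. The plt345 lengths lay above both WT lengths, so the region had a wider H3K27me3 in the mutant. EMF2b covered 465 and 353 bp in plt345 and 0 bp in both WT libraries.

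The next regions by length of H3K4me3 kept H3K27me3 in both plt345 libraries as well. On chromosome 2 from 11376892 to 11379330, H3K4me3 covered 1439 and 1755 bp in plt345, and H3K27me3 covered 2179 and 2166 bp in plt345 against 2439 and 1362 bp in WT. The H3K27me3 values of the genotypes overlapped there. On chromosome 1 from 22880266 to 22882418, H3K27me3 covered 2153 and 1560 bp in plt345 against 1354 and 1365 bp in WT, and was wider in plt345. On chromosome 4 from 18826681 to 18828822, it covered 1092 and 1614 bp in plt345 against 1510 and 2142 bp in WT, with overlap. On chromosome 10 from 2773070 to 2775312, H3K4me3 covered 1432 and 1437 bp in plt345, and H3K27me3 covered 1437 and 1618 bp in plt345 against 2243 and 1959 bp in WT. That region's plt345 lengths were both below its WT lengths. On chromosome 6 from 25851081 to 25855614, H3K4me3 covered 1398 and 1378 bp and ranked higher than most, at percentiles of 86.8 and 95.1 in the plt345 lists. It had EMF2b over 350 and 682 bp in plt345 and over 0 bp in both WT libraries.

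**Figure D2:**
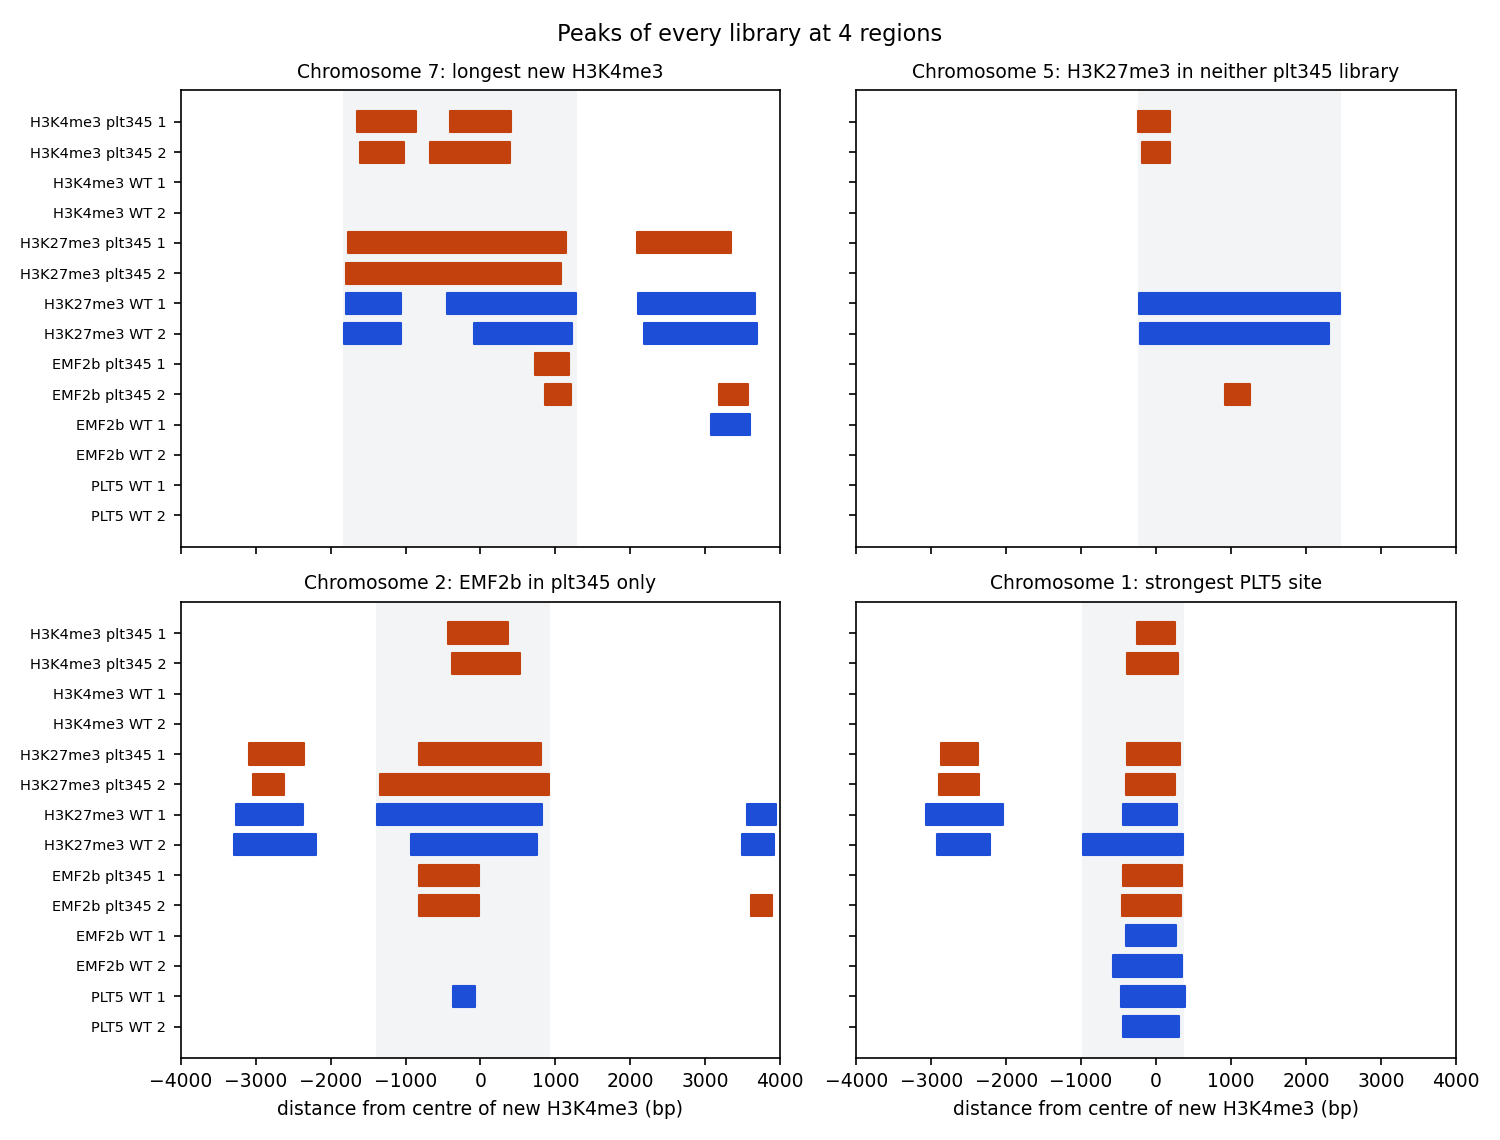
Peaks of every library (rows; plt345 in orange, WT in blue) at 4 regions, by distance in bp from the centre of the H3K4me3 core; grey marks the merged H3K27me3 region. The chromosome 7 region has H3K4me3 in plt345 over H3K27me3 of both genotypes, the chromosome 5 region has H3K27me3 in WT only, the chromosome 2 region has EMF2b in plt345 only, and the chromosome 1 region has EMF2b in all 4 libraries and PLT5 in both WT libraries.

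H3K27me3 stayed at most of the 433 regions. It was present in both plt345 libraries at 374 regions (86.4%, 95% Wilson interval 82.8 to 89.3%), in 1 of them at 37 (8.55%) and in neither at 22 (5.08%, interval 3.38 to 7.57%). H3K27me3 was in neither plt345 library at 12.0% of all 15380 WT H3K27me3-only regions, and at 12.3% of the rest. It was in both plt345 libraries at 77.3% of the rest (interval 76.6 to 78.0%). These intervals cover counting over regions, not the spread between libraries. The share in neither plt345 library was 10.5% without plt345 H3K27me3 replicate 1, 8.295% without replicate 2 and 9.46% without WT replicate 1, and it was 9.59% with peaks below the 25th percentile of q left out. The share over the rest was not worked out at these settings, so the 12.3% is no background for them. By single plt345 library, H3K27me3 was present at 91.7 and 89.6% of the 433 regions, against 82.4 and 82.7% of the rest.

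Narrowing of H3K27me3 without its loss was about as frequent as over all such regions. Narrower meant both plt345 lengths below both WT lengths, leaving out regions with the mark in neither plt345 library. Those left out were 5.08% of the 433 regions and 12.0% of the 15380. H3K27me3 was narrower in plt345 at 165 regions (38.1%, 95% Wilson interval 33.7 to 42.8%), against a background of 36.5% over all 15380 regions. It was wider, with both plt345 lengths above both WT lengths, at 64 regions (14.8%, interval 11.7 to 18.4%), against a background of 11.7%. The lengths of the genotypes overlapped at 182 regions (42.0%). At the 165 narrower regions the difference, plt345 minus WT, had a median of -430 bp.

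Summed over the 433 regions, H3K27me3 covered 658 and 659 kb in plt345, against 747 and 742 kb in WT. The means were 658 ± 0.332 kb in plt345 and 744 ± 3.32 kb in WT (SD, n = 2 each), a ratio of 0.884 and a log2 ratio of -0.18 (exact permutation p = 0.333). The plt345 values were below the WT values in both libraries, but the choice of regions asked for H3K27me3 in both WT libraries and not in plt345. Over the rest, chosen by the same demand on WT, the ratio was 0.853. With regions merged from the WT lists alone, so that plt345 peaks set no edges, the log2 ratio was -0.32 and 47.6% of the regions were narrower. Neither value was worked out for other regions with these edges, so the 47.6% cannot be set against the background of 36.5%.

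**Figure D3:**
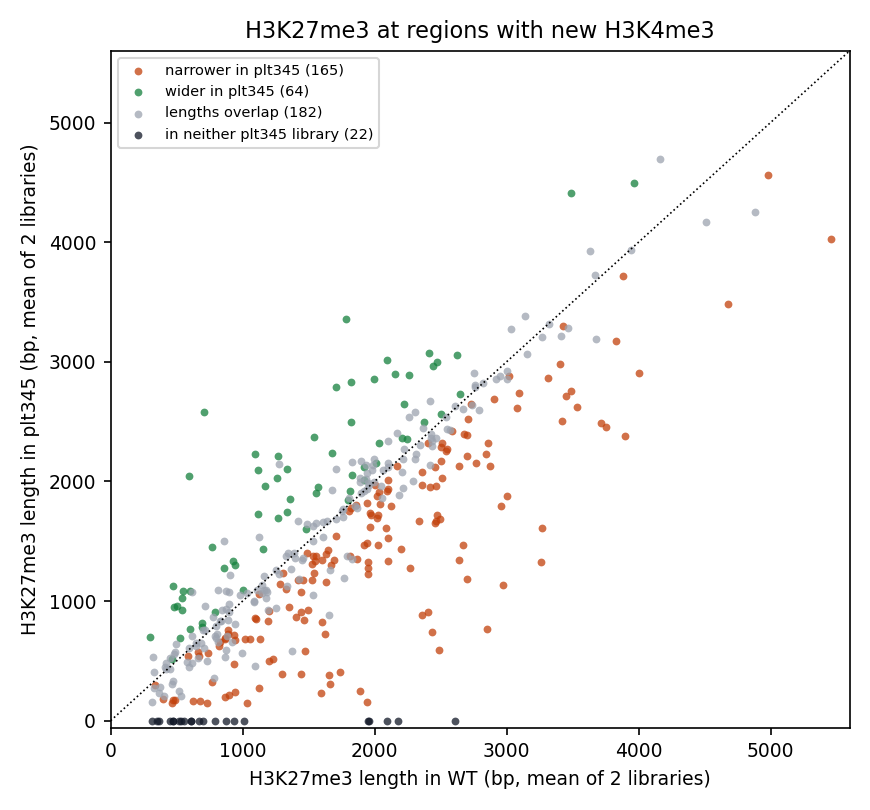
H3K27me3 length at each of the 433 regions in plt345 (y axis, bp, mean of 2 libraries) against WT (x axis, bp, mean of 2 libraries), coloured by the 4 outcomes, with a dotted line of equal lengths. Most points lie near or below the line, and the 22 regions without H3K27me3 in plt345 lie along the bottom at mostly short WT lengths.

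The 22 regions without H3K27me3 in plt345 were short. Their width had a median of 814.5 bp and their WT H3K27me3 a median of 639 bp. The median width was 2086 bp at the narrower regions, 1994 bp where lengths overlapped and 2342 bp at the wider ones. The longest of them in WT lay on chromosome 5 from 16233336 to 16236027, with H3K27me3 over 0 bp in both plt345 libraries and over 2692 and 2522 bp in WT. Its H3K4me3 covered 420 and 379 bp in plt345. The next lay on chromosome 11 from 14008604 to 14010854, with 0 bp of H3K27me3 in both plt345 libraries, 2251 and 2109 bp in WT, and 575 and 673 bp of H3K4me3 in plt345. Both were chosen for H3K27me3 in neither plt345 library, so the choice itself set the genotypes apart in H3K27me3. Their new H3K4me3 was much shorter than the H3K27me3 that was gone.

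The share with H3K27me3 in both plt345 libraries was higher at long regions than at short ones, among the 433 and among the rest. The 15380 regions were put in 4 classes of about equal number by WT H3K27me3 length, and the 433 made up 1.84, 2.34, 3.41 and 3.67% of the classes, shortest to longest. H3K27me3 was in both plt345 libraries at 57.8% of the 71 members in the shortest class, against 39.7% of the rest in that class. In the longest class it was in both plt345 libraries at 97.2% of the 141 members, against 99.0% of the rest. H3K27me3 was in neither plt345 library at 18.3% of the members and 35.4% of the rest in the shortest class, but at 2.13% of the members and 0.450% of the rest in the longest. The members thus had the lower share without H3K27me3 in the shortest class and the higher one in the longest, and these differences were not tested.

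In plt345 the new H3K4me3 mostly lay on bases that also carried H3K27me3, within regions that were themselves drawn from H3K27me3 peaks. H3K4me3 and H3K27me3 peaks shared bases in both plt345 libraries at 342 of the 433 regions (79.0%, 95% Wilson interval 74.9 to 82.6%), and in neither library at 36 (8.31%). Among the 374 regions with H3K27me3 in both plt345 libraries, 342 shared bases in both (91.4%), and the stretch under both marks had a median of 449 bp. The H3K4me3 core was at least 90% under plt345 H3K27me3 at 240 of 428 regions (56.1%) and at least 90% under WT H3K27me3 at 271 (63.3%). A replacement at the same bases, with the core at least 90% under WT H3K27me3 and under none in plt345, was seen at 21 regions (4.91%).

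In plt345, H3K27me3 covered a larger share of the core bases than of the other bases of the regions. The other bases include any H3K4me3 outside the core. Of the core bases, H3K27me3 covered 81.2 and 78.9% in plt345, against 83.6 and 81.6% in WT. Of the other bases of the regions it covered 71.1 and 71.7% in plt345, against 82.9 and 82.7% in WT. The ratio of core to other bases was 1.12 ± 0.0302 in plt345 and 0.998 ± 0.0153 in WT (SD, n = 2 each, exact permutation p = 0.333), and the plt345 values were above the WT values in both libraries. For the log2 ratios that follow, the new H3K4me3 was all stretches shared by both plt345 libraries, not the longest alone. With regions merged from the WT lists alone, the log2 ratio of H3K27me3 length was -0.20 under the new H3K4me3 and -0.36 in the other bases, against -0.04 and -0.22 in the regions as first merged.

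**Figure D4:**
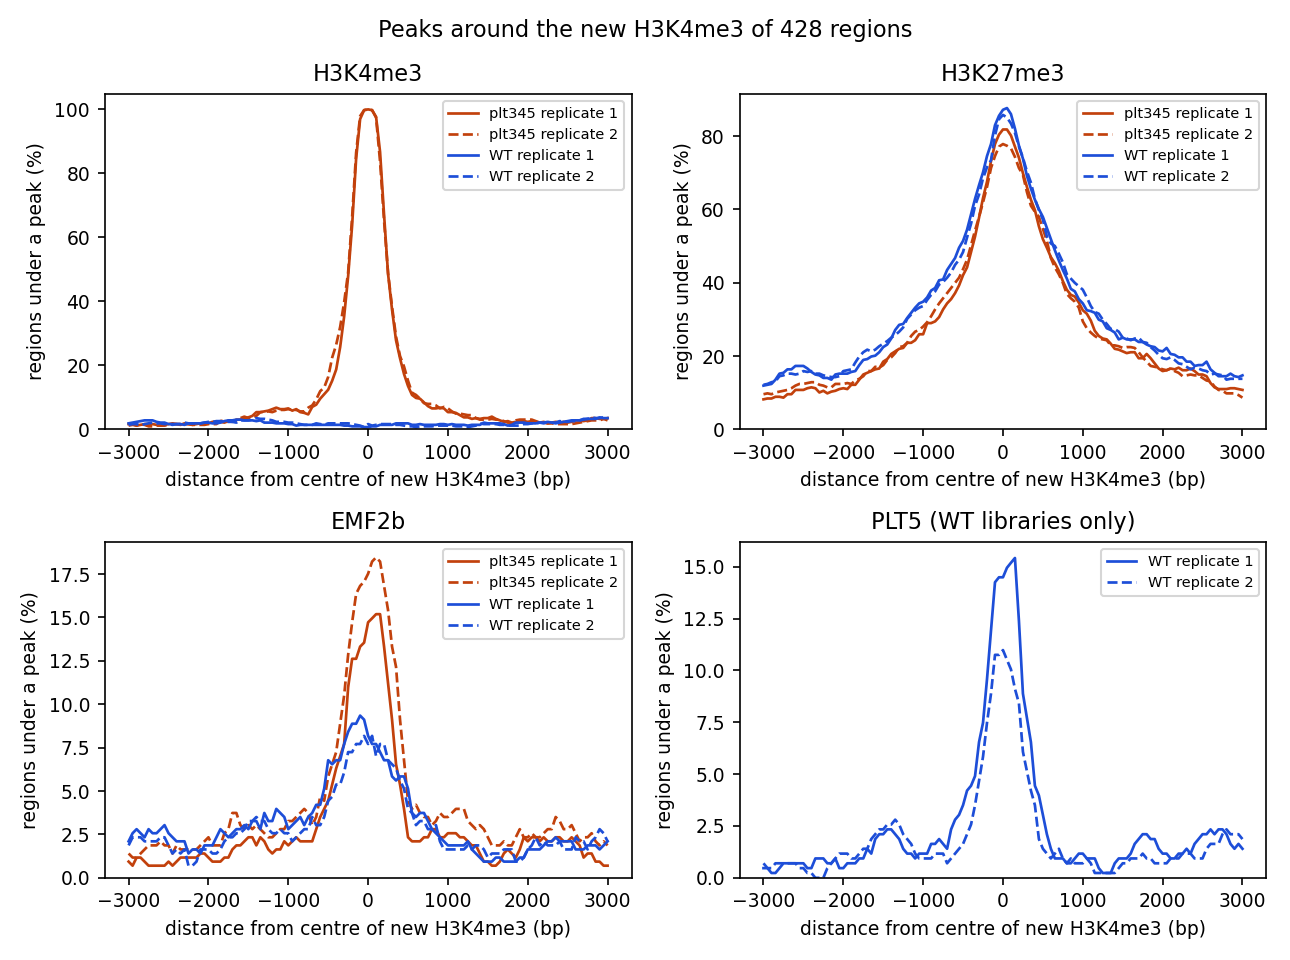
Share of 428 regions under a peak (y axis, %) by distance from the centre of the H3K4me3 core (x axis, bp) for H3K4me3, H3K27me3, EMF2b and PLT5, with a line for each library (plt345 orange, WT blue). H3K27me3 is highest at the core in both genotypes (81.8 and 77.8% in plt345, 87.1 and 85.7% in WT), and EMF2b at the core stands at 14.7 and 17.5% in plt345 against 8.18 and 7.71% in WT.

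EMF2b was found at more of the regions in plt345 than in WT. By library, 131 and 157 of the 433 regions had EMF2b in plt345 (30.3 and 36.3%), against 93 and 84 in WT (21.5 and 19.4%). The means were 33.3 ± 4.25% in plt345 and 20.4 ± 1.47% in WT (SD, n = 2 each, exact permutation p = 0.333). Both plt345 libraries lay above both WT libraries. The rest had EMF2b at 12.7 and 15.6% of regions in plt345 and at 15.6 and 14.7% in WT, where the genotypes overlapped (exact permutation p = 0.667).

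EMF2b was in both plt345 libraries at 117 regions (27.02%, 95% Wilson interval 23.1 to 31.4%) and in both WT libraries at 69 (15.9%, interval 12.8 to 19.7%). In the rest these shares were 11.0% in plt345 and 12.5% in WT. EMF2b was in both plt345 libraries and neither WT library at 42 of the 433 regions (9.70%, interval 7.26 to 12.9%), against a background of 2.91% over the 15380 regions. The reverse, EMF2b in WT only, held at 11 regions (2.54%, interval 1.42 to 4.49%), against a background of 3.26%. EMF2b was in all 4 libraries at 52 regions (12.0%), in no library at 244 (56.4%), and in a single library of at least 1 genotype at the other 84. The share with EMF2b in plt345 only was 16.4% without plt345 EMF2b replicate 1 and 4.55% with presence at 500 bp. It was not worked out over other regions at these settings, so the 2.91% is no background for them. Without plt345 EMF2b replicate 1, EMF2b was in the other plt345 library at 36.3% of the 433 regions and at 15.6% of the rest. With presence at 500 bp, EMF2b was in both plt345 libraries at 14.05% of the regions and in both WT libraries at 11.2%, a smaller gap, and in the rest at 5.56% in plt345 and 8.69% in WT. Where present by library, EMF2b peaks covered 469 ± 45.5 bp of a region in plt345 and 526 ± 16.1 bp in WT (SD, n = 2 each), so the higher share in plt345 came with no longer peaks. In the rest they covered 472 ± 14.9 bp in plt345 and 582 ± 15.2 bp in WT, so shorter cover in plt345 was not particular to the 433 regions.

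**Figure D5:**
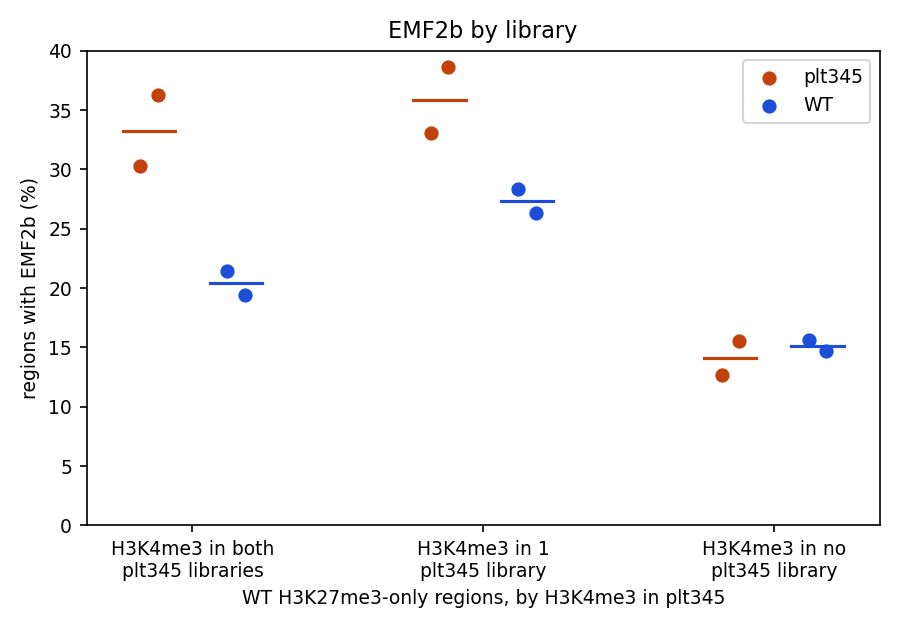
Share of WT H3K27me3-only regions with EMF2b (y axis, %) in each plt345 library (orange) and each WT library (blue), for the 433 regions with H3K4me3 in both plt345 libraries, the 448 with it in 1 and the 14499 with it in none; points are libraries and short lines are means. The plt345 points lie above the WT points in the first 2 sets and among them in the last.

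The 448 regions with H3K4me3 in a single plt345 library lay in the same direction. They had EMF2b at 35.8 ± 3.95% in plt345 and at 27.3 ± 1.42% in WT (SD, n = 2 each, exact permutation p = 0.333). Their H3K27me3 was in both plt345 libraries at 86.6%, close to the 86.4% of the 433 regions. EMF2b was also in both plt345 libraries at 65.1% of the 4461 regions that already had both marks in WT, and in both WT libraries at 60.3% of them. The 27.02% of the 433 regions in plt345 stood between that share and the 11.0% of the rest.

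EMF2b covered a larger share of the core bases than of the other bases of the regions, in plt345 more so than in WT. Of the core bases, EMF2b covered 12.8 and 16.2% in plt345, against 7.62 and 6.80% in WT. Of the other bases of the regions it covered 4.72 and 6.84% in plt345, against 5.03 and 4.30% in WT. The ratio of core to other bases was 2.54 ± 0.243 in plt345 and 1.55 ± 0.0477 in WT (SD, n = 2 each, exact permutation p = 0.333). The plt345 and WT libraries overlapped in the other bases and stood apart in the core. Of the 42 regions with EMF2b in plt345 only, 31 had EMF2b over at least part of the core in both plt345 libraries (73.8%). Of the 11 with EMF2b in WT only, 4 had EMF2b over at least part of the core in both WT libraries. Peaks of the IgG controls were not analysed here, so the part of cutting without an antibody target at these bases was not tested.

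The strongest example by length of EMF2b in plt345 only lay on chromosome 2 from 8581154 to 8583454, with EMF2b over 794 and 796 bp in plt345 and over 0 bp in the WT libraries. Its H3K4me3 covered 801 and 903 bp in plt345, and a PLT5 peak lay there in WT replicate 1 only. The next lay on chromosome 2 from 5078338 to 5081667, with 718 and 754 bp of EMF2b in plt345, and on chromosome 4 from 28499699 to 28505115, with 621 and 763 bp, both at 0 bp in WT. All 3 were chosen for EMF2b in plt345 only, so the choice itself set the genotypes apart in EMF2b. H3K27me3 was present in all 4 libraries at all 3. The longest EMF2b found in WT only lay on chromosome 4 from 5737169 to 5739348, with 0 bp in both plt345 libraries and 928 and 589 bp in WT. On chromosome 7 from 23405665 to 23406911, EMF2b averaged 3 bp in plt345, against 626.5 bp in WT, and H3K27me3 was in neither plt345 library. Of the 11 regions with EMF2b in WT only, it was the 1 without H3K27me3 in plt345, and 10 had H3K27me3 in both plt345 libraries.

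Regions with EMF2b and regions without it mostly kept H3K27me3. H3K27me3 was in both plt345 libraries at 39 of the 42 regions with EMF2b in plt345 only (92.9%) and at 10 of the 11 with it in WT only (90.9%). It was in both at 47 of the 52 with EMF2b in all 4 libraries (90.4%), at 69 of the 84 with EMF2b in a single library of a genotype (82.1%) and at 209 of the 244 with none (85.7%). In the rest, H3K27me3 was in both plt345 libraries at 72.0% of regions with EMF2b in plt345 only and 76.45% of those with it in WT only. The other shares of the rest were 69.6% with EMF2b in all 4 libraries, 72.55% with it in a single library of a genotype and 78.9% with none, so the order differed. EMF2b in plt345 only was found at 0 of the 22 regions without H3K27me3 in plt345, 9 of the 165 narrower regions (5.455%), 26 of the 182 with overlapping lengths (14.3%) and 7 of the 64 wider ones (10.9%). In the rest these shares were 3.53% without H3K27me3 in plt345, 3.20% at narrower regions, 1.96% with overlapping lengths and 1.615% at wider ones, again in another order. These are counts within small sets, and no test was made of their differences.

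PLT5 lay at a minority of the 433 regions. A PLT5 site was a merged peak found in both WT PLT5 libraries, 8781 in all, and a region was called bound where a site overlapped it by at least 1 bp. Of the 433 regions, 62 were bound (14.3%, 95% Wilson interval 11.3 to 17.9%), against 6.49% of the rest (interval 6.10 to 6.90%). Of the 448 regions with H3K4me3 in a single plt345 library 20.5% were bound, of the WT bivalent regions 59.0%, and of the 371 regions with the opposite change 50.9%. A further 52 of the 433 regions had a PLT5 peak in 1 WT library, and without WT PLT5 replicate 2 the bound share was 23.8% of the 433 and 9.96% of the rest. With presence at 500 bp it was 21.9% of the regions and 10.1% of the rest. With peaks below the 25th percentile of q left out it was 22.8% of the regions and 6.37% of the rest. PLT5 binding was read in WT, where these regions had no call of H3K4me3, and PLT5 is itself mutated in plt345.

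At 50 of the 62 bound regions (80.6%, 95% Wilson interval 69.2 to 88.6%) a PLT5 site overlapped the H3K4me3 core. The share expected from the lengths of sites, cores and regions was not worked out. Most bound regions also had EMF2b. Of the 62, 29 had EMF2b in all 4 libraries (46.8%) and 8 in none, whereas of the 371 unbound regions 23 had EMF2b in all 4 libraries (6.20%) and 236 in none (63.6%). EMF2b in plt345 only was found at 4 bound and 38 unbound regions, so 90.5% of those 42 regions had no PLT5 site in WT, where the share was 85.7% over all 433 regions and 96.2% over regions of the rest with EMF2b in plt345 only. Among the rest, 58.1% of bound and 3.58% of unbound regions had EMF2b in all 4 libraries.

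Bound and unbound regions had H3K27me3 in plt345 at close shares, and narrower H3K27me3 at shares with overlapping intervals. H3K27me3 was in both plt345 libraries at 54 of 62 bound regions (87.1%) and 320 of 371 unbound ones (86.3%). In the rest these shares were 70.7% of bound and 77.8% of unbound regions. H3K27me3 was narrower in plt345 at 29 of the 62 bound regions (46.8%, 95% Wilson interval 34.9 to 59.0%) and at 136 of the 371 unbound ones (36.7%, interval 31.9 to 41.7%). In the rest it was narrower at 39.9% of bound and 36.1% of unbound regions.

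The PLT5 site with the highest mean −log10 q, 18.9, lay in the region on chromosome 1 from 6238371 to 6239697. H3K27me3 covered 708 and 657 bp there in plt345, against 715 and 1327 bp in WT, and both plt345 lengths were below both WT lengths. EMF2b covered 785 and 782 bp in plt345, against 669 and 920 bp in WT, and those values overlapped. The largest narrowing among the 5 strongest PLT5 sites was on chromosome 1 from 41036474 to 41039989, with H3K27me3 over 1132 ± 31.8 bp in plt345 and 2972 ± 770 bp in WT (SD, n = 2 each). The PLT5 site of that region did not overlap its H3K4me3 core. EMF2b there covered 992 ± 94.8 bp in plt345 and 1218 ± 438 bp in WT, so PRC2's subunit was found in both genotypes where the H3K27me3 was shorter in plt345. The second strongest site, on chromosome 4 from 23696318 to 23699394, had H3K27me3 over 2252 ± 139 bp in plt345 and 2541 ± 137 bp in WT, narrower as well. EMF2b there covered 0 and 283 bp in plt345 and 0 bp in both WT libraries.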

How the data were processed

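MACS2 2.2.7.1, Bowtie2 2.4.4, Trim Galore 0.6.6 and deepTools 3.5.0 are the tools per the submitters' processing notes. No source used here gives their roles and settings, or the genome build. The deposited files hold 1 peak list per library, 14 in all: broad peaks for H3K27me3 and narrow peaks for H3K4me3, EMF2b and PLT5. Each deposited peak has its position, a summit where narrow, a score (10 times a −log10 value), a fold enrichment (a ratio) over the background that the authors' caller modelled, and −log10 p-values and q-values. Of 20 samples, 6 have no list here and were not analysed.

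From the positions, intervals were merged and intersected in Python 3.11.15 with numpy 2.4.6 and pandas 2.3.3. Presence needed 150 bp covered. Shares of regions carry 95% Wilson intervals (scipy 1.17.1), and genotypes were compared over libraries by two-sided exact permutation tests. The code was tested on simulated peaks.

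The regions and comparisons were chosen with earlier results of these data known. Regions were named by rank, unplaced sequence left out: longest new H3K4me3, longest lost H3K27me3, longest EMF2b in plt345 only and in WT only, highest PLT5 −log10 q, and those nearest the 150 bp threshold; the text gives some of each. Alternatives were a presence at 1 or 500 bp, a stricter q (the 25th percentile of each list), equal numbers of peaks, leaving out each library and, added after seeing the data, no WT H3K4me3 base and regions merged from WT lists alone. Gene positions were not used here, because the lists' assembly could not be matched to an annotation.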

Additional observations from a re-analysis of the deposited data

How the results depend on the processing

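A call rests on peaks past the caller's threshold, and the depth behind them is unknown. Of 108 values under the alternatives other than leaving out a library, 85 stayed within the limits set for the same result. With presence at 500 bp, 242 regions gained H3K4me3 and 306 had the opposite change, 91.3% shared bases with plt345 H3K27me3, 14.05% had EMF2b in both plt345 and 11.2% in both WT libraries, 4.55% had it in plt345 only, and 21.9% were PLT5-bound. With peaks below the 25th percentile of q left out, the gain was at 219 regions and the opposite change at 193. H3K27me3 was then in both plt345 libraries at 79.0% and in neither at 9.59%, and marks shared bases at 74.4%. EMF2b was in WT only at 0%, and PLT5 was at 22.8%, against 6.37% of the rest. With equal numbers of peaks, H3K27me3 was in both plt345 libraries at 90.1% and narrower at 43.3%, and with regions merged from WT lists, chosen after seeing the data, narrower at 47.6%. The cause of these shifts was not tested. For narrower H3K27me3, no share over other regions was worked out at these settings.

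Leaving out each library in turn gave 428 to 658 regions with the gain and 366 to 540 with the opposite change. H3K27me3 was in both plt345 libraries at 81.3 to 91.7%, in neither at 4.50 to 10.5% and narrower at 37.4 to 49.8%, with a log2 length ratio of -0.21 to -0.17. Marks shared bases at 75.3 to 87.1%. EMF2b was in both plt345 libraries at 25.8 to 36.3%, in both WT at 14.9 to 21.5%, in plt345 only at 8.06 to 16.4% and in WT only at 1.98 to 3.70%; PLT5 was at 13.4 to 23.8%. Leaving out a library of a pair loosens a call that asks for both or for neither, over any set of regions.

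With the replicate number as a block the log2 ratio of H3K27me3 length was -0.18, as without it. Same-numbered libraries did not deviate together (correlation 0.028 over the 433 regions), so the numbers were not taken to pair the H3K27me3 libraries; no such check was made for the other antibodies.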
